A study of Homo sapiens with 4 samples.

Results

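The small RNA silencing machinery was described in KYSE30 cells, an established line from a human esophageal squamous cell carcinoma (ESCC), through 10 genes: DROSHA, DGCR8, XPO5, DICER1, AGO1, AGO2, AGO3, AGO4, TNRC6A and TNRC6B. The genes were chosen by name, as the core factors of microRNA and hairpin processing and of silencing, and each was matched to a row of the deposited gene table. All 10 were found among 30716 rows, and all 10 were among the 18035 genes abundant enough to be tested. The study set cells whose hairpin targets the transcription factor YY1 (shYY1, a YY1 knockdown) against cells with a control hairpin (shNC, the negative control). Cells of both groups were KYSE30 cells that had taken up a hairpin and been selected with puromycin, and each group had 2 RNA-seq libraries. Both groups therefore carry a hairpin construct, whose product would pass through at least part of this machinery, and cells without a hairpin were not analysed here. The labels do not say whether the libraries of a group came from separate cultures, so every p-value reflects the spread between libraries alone, which may be technical. A lower transcript level in such bulk RNA may mean fewer cells that express a gene or less RNA per cell, and these cannot be told apart.

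MicroRNAs begin as hairpins in long nuclear transcripts. The Microprocessor, made of the nuclease Drosha and its RNA-binding partner DGCR8, crops the hairpin, Exportin-5 (XPO5) carries it to the cytoplasm, and the nuclease Dicer (DICER1) trims it to a short duplex. One strand is loaded into an Argonaute protein (AGO1 to AGO4), and a GW182 protein (TNRC6A, TNRC6B or TNRC6C) bound to Argonaute recruits deadenylases that shorten and destabilise the target mRNA. AGO2 is the Argonaute best known for cutting fully matched targets, which is how a short hairpin RNA expressed from a vector usually acts. Drosha, Dicer and AGO2 have been studied in squamous carcinomas, as in other tumours, for altered levels.

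Total counts per library ranged from 67390336 to 72499865, and 3 counts corresponded to 0.0416 to 0.0439 CPM (counts scaled to a common library total). YY1, the target of the hairpin, had 8147 and 7960 counts in shNC and 2606 and 2344 in shYY1. It was 3.17-fold lower in shYY1 (log2 fold change -1.67 ± 0.088, SE; edgeR quasi-likelihood test, Benjamini-Hochberg adjusted p = 6.18e-05). The same test called 910 genes higher and 883 lower at an adjusted p under 0.05, a split of 50.8% higher that became 40.3% (689 higher, 1019 lower) when libraries were scaled by their totals alone. This scaling moved the median log2 fold change of all tested genes from -0.01 to -0.06. All 13 squamous epithelial marker genes looked for had a row, with a summed level of 1221 to 1358 CPM per library. Most of that sum came from SFN, CDH1, EPCAM and DSP, which other epithelia also express. TP63 (44.6 to 53.5 CPM), SOX2 (32.3 to 44.8 CPM) and KRT6A (31.5 to 39.0 CPM) were present, whereas KRT5 (0.357 to 0.640 CPM), KRT17 (1.18 to 1.74 CPM) and KRT14 (3.74 to 4.67 CPM) were low and PKP1 had 0, 14, 7 and 0 counts. The labels' extraction text speaks of retina, and the 8 of 15 retina markers with a row summed to 2.58 to 4.48 CPM. Stromal, immune and endothelial markers each summed to between 4.14 and 7.83 CPM, and 3 of the immune markers with a row had 0 counts in every library.

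Of the 10 machinery genes, 1 fell in shYY1 in edgeR's quasi-likelihood test, with p adjusted over all tested genes by the Benjamini-Hochberg method. This was DICER1, 1.44-fold lower with an adjusted p of 0.0475. None rose, and 9 did not pass. Among all tested genes 4.9% were called lower and 5.05% higher, and among the 10588 with a mean of 5 CPM or more, as all 10 machinery genes had, 7.67% and 8.17%. So 1 of 10 is too few to set the machinery apart from that. At an unadjusted p under 0.05 the test had 5 machinery genes lower and 1 higher, where 12.5% of all tested genes were lower and 12.5% higher at that threshold. DESeq2 called 3 lower (DICER1, AGO2 and TNRC6B), where 9.7% of its 12790 genes with an adjusted p were called lower. A stricter filter, which kept the 10708 genes at 5 CPM or more in 2 libraries, also gave 3 lower and 0 higher, beside 12.1% and 10.5% of those genes. Limma-trend on log2 CPM called 0 of the 10 in either direction, beside 819 higher and 831 lower among the 18035 tested genes. The median log2 fold change of the 10 was -0.21, beside -0.01 over all tested genes, with 8 values below 0 and 2 above. In 5 genes (DICER1, AGO2, AGO4, TNRC6A and TNRC6B) both shYY1 libraries lay below both shNC libraries in CPM, as in 28.1% of all tested genes. In DROSHA both lay above, as in 26.8% of all tested genes.

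**Figure D1:**
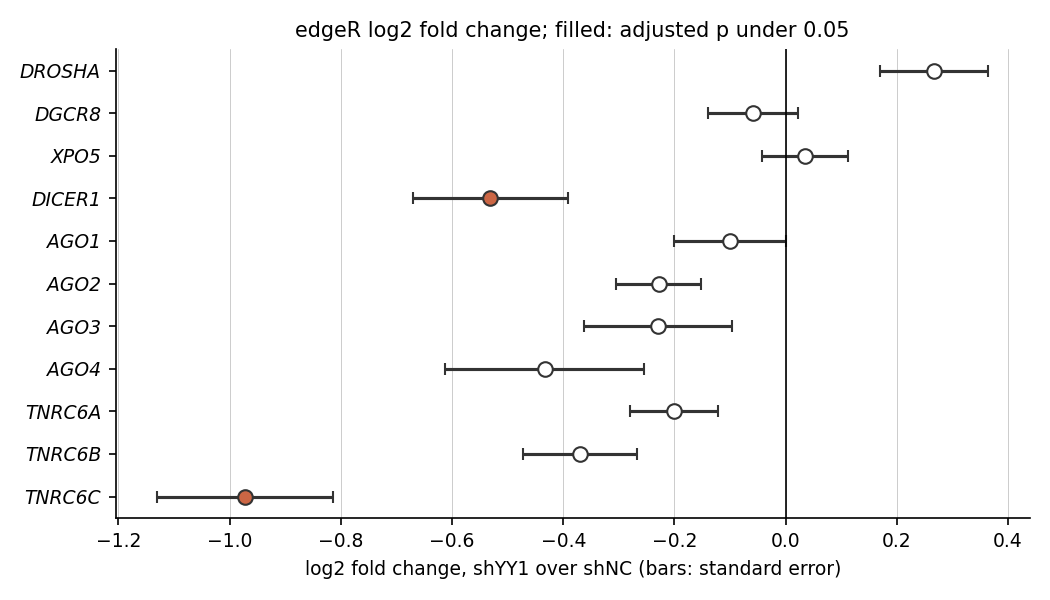
Log2 fold change of shYY1 over shNC (horizontal axis) for the 10 machinery genes and the paralogue TNRC6C, from edgeR, with bars of 1 standard error and filled points where the adjusted p was under 0.05. DICER1 at -0.53 and TNRC6C at -0.97 are filled, and DROSHA at 0.27 lies farthest to the right.

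The plot of fold changes by gene orders the genes along the pathway, from nuclear cropping at the top to the silencing effectors at the bottom. Values near 0 were found for DGCR8, XPO5 and AGO1, and the lowest value among the 10 was that of DICER1.

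The nuclear step was described by DROSHA and DGCR8. DROSHA (ENSG00000113360, chromosome 5, 31400497 to 31532196, minus strand, in the deposited table's coordinates), the RNase III enzyme that makes the first cut, was at 118 and 98.3 CPM in shNC and 129 and 132 CPM in shYY1. Both shYY1 libraries were above both shNC libraries, and the shNC libraries differed from each other more than the shYY1 libraries did. The log2 fold change was 0.27 ± 0.0975 (SE), or 1.20-fold, with an edgeR adjusted p of 0.125, so DROSHA did not pass. Without shNC replicate 1 it did, at a log2 fold change of 0.41 and an adjusted p of 0.00868. DGCR8 (ENSG00000128191, chromosome 22, 20080232 to 20111877, plus strand), which recognises the hairpin's stem and base, was at 87.2 and 89.9 CPM in shNC and 87.5 and 82.6 CPM in shYY1. The groups overlapped, and the log2 fold change of -0.06 ± 0.0806 (SE) was smaller than its error (adjusted p = 0.730). The ratio of DROSHA to DGCR8 in FPKM (counts scaled to gene length and library total) was 1.28 and 1.03 in shNC and 1.38 and 1.5 in shYY1. These ratios did not overlap, but 2 libraries against 2 cannot reach an exact two-sided permutation p below 0.33. In FPKM, unlike in CPM, DGCR8 was lower in both shYY1 libraries. With DROSHA higher in both, the gap between the ratios follows from the separate values.

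DGCR8 also carries hairpins in its own transcript, which Microprocessor is known to cut, so its mature microRNAs are shown as a link between the enzyme and its partner's mRNA. They lie inside an annotated exon on the plus strand of chromosome 22, at chr22:20085797-20085818, chr22:20086072-20086093 and chr22:20086112-20086129 (RefSeq, GRCh38.p14). Capitals mark the seed, bases 2 to 8, with which a loaded microRNA pairs to its targets.
hsa-miR-3618: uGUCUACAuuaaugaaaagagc
hsa-miR-1306-5p: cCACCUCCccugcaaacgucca
hsa-miR-1306-3p: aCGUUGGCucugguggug
The 3 seeds differ. The rows of MIR3618 and MIR1306 each had 1 count in every library, beside 5639 to 6486 counts for DGCR8. The libraries were made from total RNA with a kit for long transcripts, so mature microRNAs are not what they measure.

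XPO5 (ENSG00000124571, chromosome 6, 43522334 to 43576038, minus strand), which exports the cropped hairpin with the small GTPase Ran, was the most abundant of the 10 per length. It was at 173 and 186 CPM in shNC and 184 and 184 CPM in shYY1. The shYY1 libraries lay between the shNC libraries. The log2 fold change was 0.04 ± 0.0774 (SE; edgeR adjusted p = 0.845). Its sign turned under scaling by library totals alone (-0.01), so no direction is given. XPO5 overlaps POLR1C, on the other strand, over 40058 bases. Whether the counting used strand is not given in the sources used here, and without strand their shared reads cannot be told apart. POLR1C had 2945 and 3749 counts in shNC and 3805 and 3566 in shYY1, beside 12115 to 13424 counts for XPO5.

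DICER1 (ENSG00000100697, chromosome 14, 95086228 to 95157529, minus strand), the RNase III enzyme that cuts the loop from exported hairpins, had 5478 and 4402 counts in shNC and 3737 and 2948 in shYY1. These were 78.2 and 61.0 CPM in shNC and 53.2 and 43.2 CPM in shYY1. All shYY1 values lay below all shNC values, yet the 2 libraries within each group also stood well apart. The mean fell from 69.6 ± 12.2 to 48.2 ± 7.09 CPM (SD, n = 2 each), a log2 fold change of -0.53 ± 0.140 (SE) with an edgeR adjusted p of 0.0475. The call rested on single libraries. Without shNC replicate 1, the higher shNC library, the log2 fold change was -0.34 (adjusted p = 0.181), and without shYY1 replicate 2, the lower shYY1 library, it was -0.39 (adjusted p = 0.191). It was also lost when libraries were scaled by totals alone, at a log2 fold change of -0.58 (adjusted p = 0.0619). Over 13 alternatives DICER1 was called in 7, its log2 fold change was negative in all 13, from -0.69 to -0.34, and its adjusted p ran from 0.000904 to 0.191.

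An intron of DICER1 holds a microRNA gene on the same strand, shown here because it shares the primary transcript of the machinery gene that was called. Its mature strands lie at chr14:95137923-95137944 and chr14:95137961-95137982 on the minus strand (RefSeq, GRCh38.p14), and capitals mark the seed, bases 2 to 8.
hsa-miR-3173-3p: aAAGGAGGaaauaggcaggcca
hsa-miR-3173-5p: uGCCCUGCcuguuuucuccuuu
Neither seed is shared with the microRNAs inside DGCR8.

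The ratio of DROSHA to DICER1 sets the transcript of the nuclear nuclease against that of the cytoplasmic one, and does not measure cutting. In FPKM it was 2.47 and 2.63 in shNC and 3.95 and 4.98 in shYY1. The groups did not overlap, with the smallest exact two-sided permutation p this design allows being 0.33. Since DROSHA was higher and DICER1 lower in both shYY1 libraries, this ratio could not have overlapped and adds nothing to the separate values. The ratio of XPO5 to DICER1 was 3.31 and 4.56 in shNC and 5.17 and 6.39 in shYY1, again without overlap. These ratios share the DICER1 values and are descriptions of the same 4 libraries. The ratios of AGO2 to AGO1 and of TNRC6A to TNRC6B, also taken, did not overlap between the groups either.

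**Figure D2:**
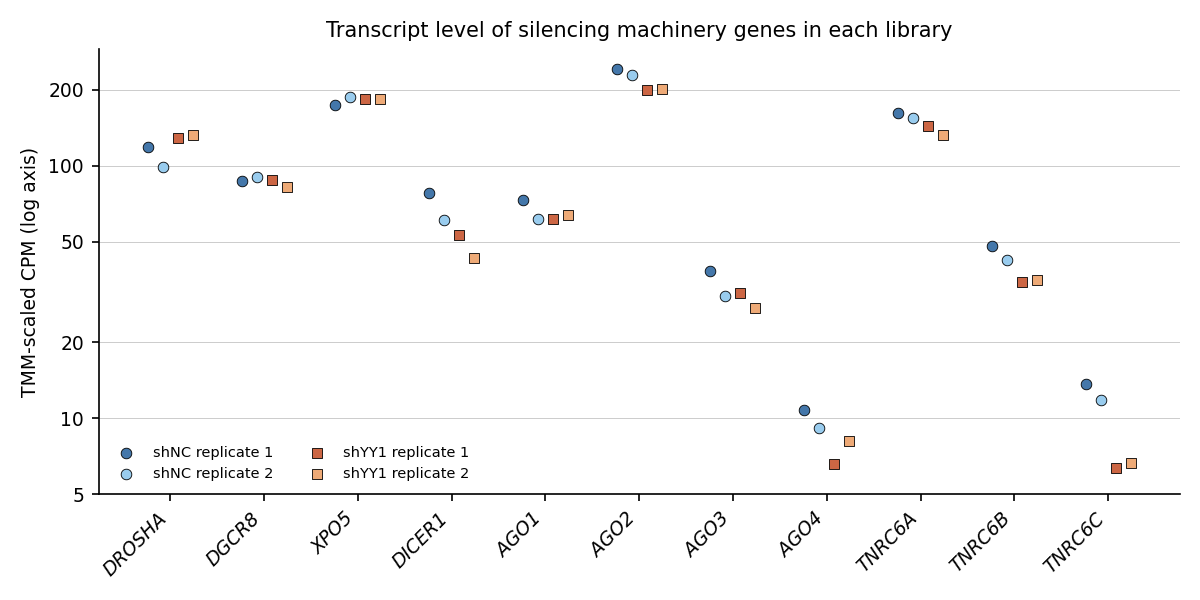
TMM-scaled CPM (vertical log axis) of the 10 machinery genes and the paralogue TNRC6C in each of the 4 libraries, circles for shNC and squares for shYY1. The shYY1 squares of DICER1, 53.2 and 43.2 CPM, lie below both shNC circles, 78.2 and 61.0 CPM, and shNC replicate 1 is the higher shNC circle for 8 of the 10 genes.

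The plot of levels by library shows how far the spread within a group differed between genes. XPO5 varied by 0.188 CPM (SD) around 184 CPM in shYY1, whereas DICER1 varied by 7.09 CPM around 48.2. Of the 10 genes, 8 were higher in shNC replicate 1 than in replicate 2. Leaving out replicate 1 lowers their shNC level, so each of their log2 fold changes must rise. The negative values thus moved toward 0, that of AGO1 past it, and the positive value of DROSHA away from 0.

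The 4 Argonautes bind the small RNA and hold it against its target. AGO2 (ENSG00000123908, chromosome 8, 140520156 to 140635633, minus strand), the slicing Argonaute, had 16858 and 16400 counts in shNC and 13975 and 13699 in shYY1. These were 241 and 227 CPM in shNC and 199 and 201 CPM in shYY1. Both shYY1 libraries were lower, and the replicates of each group lay close together. The log2 fold change was -0.23 ± 0.0764 (SE), or 1.17-fold lower, with an edgeR adjusted p of 0.0974, which did not pass. AGO2 was called in 4 of 13 alternatives: scaling by totals alone (-0.28, adjusted p = 0.0494), the 5 CPM filter (-0.26, adjusted p = 0.0324), DESeq2 (-0.22, adjusted p = 0.037) and the fit without shNC replicate 2 (adjusted p = 0.0106). Its log2 fold change was negative in all 13 alternatives.

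AGO1, AGO3 and AGO4 stand in a row on the plus strand of chromosome 1, within 264485 bases from 35808016 to 36072500. AGO4 comes first, AGO1 follows after 11917 bases, and AGO3 starts 185 bases after AGO1 ends. None of the 3 passed. AGO4 (ENSG00000134698, chromosome 1, 35808016 to 35857890), the least abundant of the 10, was at 10.7 and 9.18 CPM in shNC and 6.59 and 8.16 CPM in shYY1. The groups did not overlap, and the fold change of -0.43 ± 0.179 (log2, SE) had an edgeR adjusted p of 0.173. AGO1 (ENSG00000092847, chromosome 1, 35869808 to 35930532), which silences without cutting most targets, was at 72.9 and 61.4 CPM in shNC and 61.4 and 64.0 CPM in shYY1. Only shNC replicate 1 stood above the other libraries, and the log2 fold change was -0.10 ± 0.101 (SE; adjusted p = 0.615). Without that library it was 0.03, so the sign of AGO1 rested on shNC replicate 1. AGO3 (ENSG00000126070, chromosome 1, 35930718 to 36072500) was at 38.2 and 30.5 CPM in shNC and 31.3 and 27.2 CPM in shYY1. Its groups overlapped, at a log2 fold change of -0.23 ± 0.133 (SE; adjusted p = 0.332). The log2 fold changes of these 3 neighbours thus ran from -0.43 for AGO4 to -0.10 for the adjacent AGO1, and the differences between them were not tested.

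The summed FPKM of the 4 Argonautes was 20.8 and 17.9 in shNC and 16.2 and 16.0 in shYY1. All shYY1 sums were below all shNC sums, and the shNC sums differed from each other by more than the lower of them differed from the shYY1 sums. AGO2 held 64.1% and 66.9% of that sum in shNC and 64.9% and 64.4% in shYY1. The groups overlapped in this share. AGO1 held 22.2% and 20.6% in shNC and 22.8% and 23.4% in shYY1, and AGO3 held 6.54% to 7.65% in the 4 libraries. AGO4 held 6.09% and 5.75% in shNC and 4.57% and 5.58% in shYY1. AGO1 held a larger share and AGO4 a smaller share in both shYY1 libraries than in either shNC library. In every library AGO2 came first and AGO1 next, and AGO3 and AGO4 held under 8% each.

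**Figure D3:**
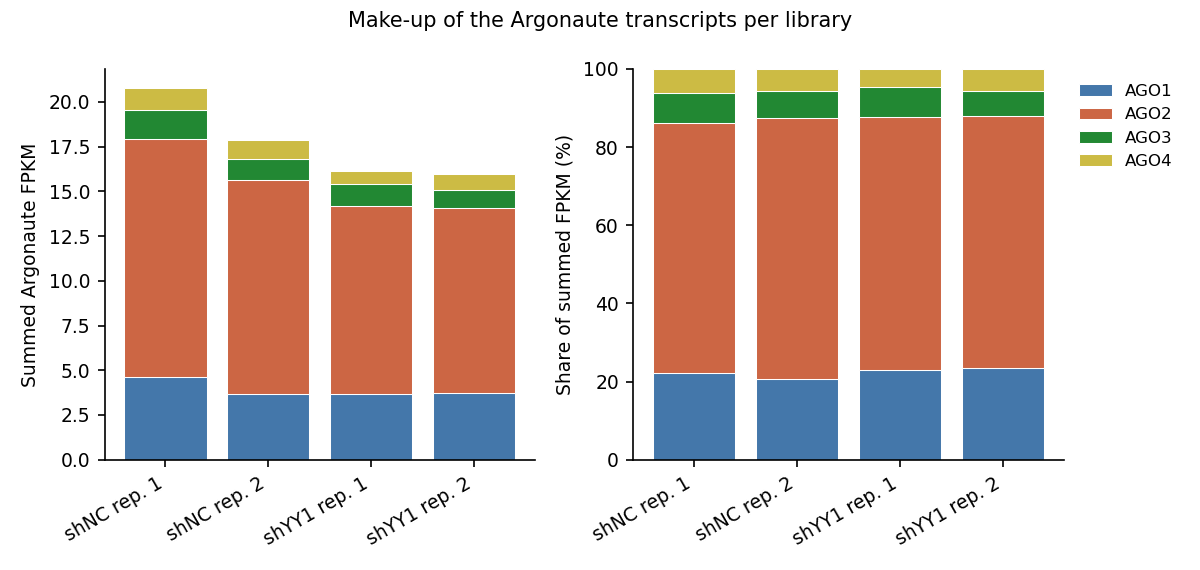
Summed FPKM of AGO1 to AGO4 (left panel) and the percentage of that sum from each Argonaute (right panel) in each of the 4 libraries, with colours for the genes. The sum runs from 16.0 to 20.8, and AGO2 makes up 64.1% to 66.9% in every library.

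The plot of Argonaute make-up sets these sums and shares side by side, with the order of the 4 genes the same in each column.

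The GW182 proteins link Argonaute to deadenylation. TNRC6B (ENSG00000100354, chromosome 22, 40044817 to 40335808, plus strand) had 3366 and 3037 counts in shNC and 2426 and 2408 in shYY1, or 48.1 and 42.1 CPM against 34.5 and 35.3 CPM. Both shYY1 libraries were below both shNC libraries. The log2 fold change was -0.37 ± 0.102 (SE), or 1.29-fold lower, with an edgeR adjusted p of 0.0551, just short of the threshold. TNRC6B was called in 5 of 13 alternatives, among them DESeq2 (-0.36, adjusted p = 0.0185), the 5 CPM filter (-0.40, adjusted p = 0.0269), scaling by totals alone (-0.42, adjusted p = 0.0496) and the fit without shNC replicate 2 (-0.46, adjusted p = 0.0138). TNRC6A (ENSG00000090905, chromosome 16, 24610209 to 24826218, plus strand), the family's founding member and a marker of P bodies, was at 162 and 154 CPM in shNC and 143 and 132 CPM in shYY1. Its groups did not overlap, and the log2 fold change of -0.20 ± 0.0791 (SE) had an adjusted p of 0.153. It passed in 1 alternative, without shNC replicate 2 (-0.23, adjusted p = 0.0486).

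TNRC6C, the paralogue of both, is not among the 10 but completes the family. TNRC6C (ENSG00000078687, chromosome 17, 77959240 to 78108835, plus strand) had 956 and 850 counts in shNC and 446 and 452 in shYY1, or 13.7 and 11.8 CPM against 6.35 and 6.62 CPM. The shYY1 libraries were close together and far below the shNC libraries. TNRC6C fell by 0.97 on the log2 scale (SE 0.159), or 1.96-fold, with an edgeR adjusted p of 0.0073, and it was called in all 11 alternatives that could be fitted to it. It overlaps TMC6, on the other strand, over 1439 bases, and TMC6 had 1587 and 1721 counts in shNC and 1271 and 1368 in shYY1. Of the summed FPKM of the 3 GW182 genes, TNRC6C held 7.61% and 7.0% in shNC and 4.26% and 4.72% in shYY1, while TNRC6A held 77.5% and 79.0% in shNC and 82.8% and 81.2% in shYY1. TNRC6B held 13.0% to 14.9% in the 4 libraries. The gene that fell most was therefore the least abundant of the family, and TNRC6A was the main GW182 transcript in every library.

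Promoters were searched for the core letters of the YY1 motif, CCATNTT (N is any base), on both strands. RefSeq promoter windows of 300 bases (250 before to 50 after a start, GRCh38.p14) were found for 9 of the 10 genes, 13 windows in all. The core was in 1 of them, 58 bases before a RefSeq start of TNRC6A that lies inside the span of its row, and in 15.6% of 35116 windows over all genes. TNRC6C had the core in 2 of its 4 windows, and the 5 windows of DICER1 held none. A match is only a match of letters. The window of TNRC6A (chr16:24729401-24729700, plus strand), a window of TNRC6C with the core 12 bases after its start (chr17:77958453-77958752, plus strand) and the first window of DICER1 (chr14:95157480-95157779, minus strand) are shown because these are the promoters with a match and that of the called machinery gene, and capitals mark the core on either strand.
TNRC6A: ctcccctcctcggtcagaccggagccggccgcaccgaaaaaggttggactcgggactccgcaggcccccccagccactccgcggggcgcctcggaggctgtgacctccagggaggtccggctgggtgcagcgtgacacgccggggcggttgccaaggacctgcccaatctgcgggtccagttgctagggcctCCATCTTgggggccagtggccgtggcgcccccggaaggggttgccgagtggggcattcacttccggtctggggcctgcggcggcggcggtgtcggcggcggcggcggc
TNRC6C: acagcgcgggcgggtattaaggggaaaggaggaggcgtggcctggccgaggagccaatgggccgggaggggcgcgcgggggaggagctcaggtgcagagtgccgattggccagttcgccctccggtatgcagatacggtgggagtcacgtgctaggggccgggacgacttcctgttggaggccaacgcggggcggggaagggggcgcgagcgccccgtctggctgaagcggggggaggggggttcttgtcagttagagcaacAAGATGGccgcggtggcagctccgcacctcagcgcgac
DICER1: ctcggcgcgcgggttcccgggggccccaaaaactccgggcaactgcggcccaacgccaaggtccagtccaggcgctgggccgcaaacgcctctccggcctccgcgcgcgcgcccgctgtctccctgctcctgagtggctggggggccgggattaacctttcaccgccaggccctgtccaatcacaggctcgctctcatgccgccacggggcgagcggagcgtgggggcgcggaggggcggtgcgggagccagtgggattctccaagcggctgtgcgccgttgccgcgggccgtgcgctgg
The TNRC6A and DICER1 windows are both 73.7% G and C.

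Levels between genes were set in order by FPKM, which divides by a length per gene. For the 10 genes the length that the FPKM imply was 1.18 to 1.23 times the bases covered by all exons of the gene in GENCODE 29. The order is thus per base of all annotated exons, not per base of 1 transcript. In shNC, XPO5 was highest at 18.1 ± 0.256 FPKM (SD, n = 2), followed by AGO2 at 12.6 ± 0.985, DROSHA at 11.9 ± 2.0, TNRC6A at 10.4 ± 0.725 and DGCR8 at 10.3 ± 0.161. The ranges of AGO2, DROSHA and TNRC6A each overlapped that of the next gene in this order, so the ranges do not separate these neighbours. Within each shNC library DROSHA was above TNRC6A. AGO2 and DROSHA changed order between the shNC libraries, and so did TNRC6A and DGCR8. DGCR8 lay clear of the next gene below it. A lower tier held DICER1 at 4.71 ± 0.997 and AGO1 at 4.14 ± 0.654 FPKM. Their ranges also overlapped, although DICER1 was above AGO1 within each shNC library. TNRC6B at 1.93 ± 0.253, AGO3 at 1.39 ± 0.271 and AGO4 at 1.15 ± 0.170 FPKM were lowest. The ranges of AGO3 and AGO4 overlapped, although AGO3 was above AGO4 within each shNC library. In shYY1 the order differed at 3 pairs of neighbours, all among genes whose ranges overlapped in shNC: DROSHA (13.8 FPKM) stood above AGO2 (10.4 FPKM), DGCR8 (9.59 FPKM) above TNRC6A (8.74 FPKM) and AGO1 (3.72 FPKM) above DICER1 (3.13 FPKM). In shYY1 the ranges of DGCR8 and TNRC6A again overlapped. The order also depends on the length used. When CPM were divided by the longest coding transcript in GENCODE 29 instead, AGO2 moved from rank 2 to rank 5 in shNC, at 16.1 CPM per kilobase, below DROSHA (20.4), DGCR8 (19.6) and TNRC6A (18.7), while XPO5 stayed first at 33.5.

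The 10 transcripts are long. Their exons cover 7267 to 21157 bases in GENCODE 29, against a median of 4077 bases over tested genes. Among the 3209 genes at 5 CPM or more with 7000 bases or more, the median log2 fold change was -0.05, 56.0% of values were below 0, 10.2% were called lower and 5.86% higher. Among the 984 such genes under 2000 bases the median was 0.08, 36.5% were below 0, 3.86% were called lower and 4.98% higher. The shNC libraries differed along the same axis: the median log2 ratio of shNC replicate 1 to replicate 2 was 0.09 in the long genes and -0.17 in the short ones, and it was 0.20 over the 10 machinery genes. The part of length and of shNC replicate 1 in the machinery's values was not tested.

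Annotated 3′ UTRs (GENCODE 29, transcript with the longest coding sequence) were searched for the words TTCAGAA and TCAGAAA on the transcript strand. They overlap in 6 letters, and they came from an earlier search of these same data, so they are no independent evidence. A word of either kind was in 2915 of 9620 genes searched (30.3%), and in 71.7% of the 1762 genes with a 3′ UTR of 3000 bases or more. The genes with a word had a median log2 fold change of -0.11, with 62.4% below 0, and those without had 0.07, with 38.0% below 0. Within the long 3′ UTRs these medians were -0.09 and 0.06. Of the machinery, 6 genes held a word: AGO1, AGO2, AGO3, AGO4, DICER1 and TNRC6B, with 3′ UTRs of 4270 to 16755 bases. Their log2 fold changes ran from -0.53 to -0.10, with a median of -0.30. The other 4, DROSHA, DGCR8, XPO5 and TNRC6A, with 3′ UTRs of 935 to 2420 bases, ran from -0.20 to 0.27, with a median of -0.01. All 3′ UTRs of the 6 were longer than those of the 4, so the words and length cannot be told apart here. TNRC6C, which fell most, held neither word. A further word, TCGGAGA, was also searched, and was in 1.8% of the 9620 genes and in 0 of the 10.

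Sites of the 3 machinery genes with the most negative values are shown, with the word in capitals. These are in DICER1 (base 3265 of its 3′ UTR of 4270 bases), TNRC6B (bases 740 and 3043 of 12566) and AGO4 (base 1008 of 4285). Not shown are sites of AGO4 at base 6 and of TNRC6B at bases 6159 and 6160. DICER1 lies on chromosome 14, TNRC6B on chromosome 22 and AGO4 on chromosome 1.
DICER1: actttgcccTCAGAAAgattctgat
TNRC6B at 740: cctgacttcTCAGAAAgctgcatcg
TNRC6B at 3043: tcctgaaacTTCAGAAagtttaaac
AGO4: tgaaaccagTCAGAAAagacatata
The site of TNRC6B at base 3043 holds both words, since the letter after TTCAGAA is A. Whether any small RNA binds these sites was not tested.

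Beyond the 10 genes, 107 genes of the wider pathway were tested, from lists of cofactors written by function. Of these 11 rose and 13 fell in the same edgeR test, 83 did not pass, and their median log2 fold change was 0.02. All of these calls were among the 102 genes with a mean of 5 CPM or more, where 8.17% of all genes at that level rose and 7.67% fell. None of the 16 nuclear processing cofactors (such as DDX5, DDX17 and SRRT) and none of the 6 export genes (such as RAN and XPO1) passed, with medians of -0.01 and 0.00. Of all tested genes 12.5% were lower and 12.5% higher at an unadjusted edgeR p under 0.05, and DESeq2 called 9.7% of its genes lower. In both lists edgeR had 0 genes at that unadjusted threshold, and DESeq2 and limma-trend called 0. Their log2 fold changes ran from -0.17 to 0.11 among the cofactors and from -0.14 to 0.11 among the export genes.

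Downstream of Dicer, calls went in both directions. Among 21 tested partners, loading chaperones and cofactors of the silencing complex, 4 rose and 4 fell, with a median log2 fold change of 0.15. Over all tested genes 5.05% rose and 4.9% fell, and at a mean of 5 CPM or more 8.17% and 7.67%. TSN, a subunit of the C3PO nuclease that clears the passenger strand, fell by 0.65 on the log2 scale from 120 to 76.4 CPM (SE 0.0829, adjusted p = 0.00252). LIMD1 and AJUBA, LIM proteins that bridge Argonaute to the cap-binding complex, fell by 0.77 (SE 0.111, adjusted p = 0.0044) and 0.60 (SE 0.105, adjusted p = 0.0096). AHSA1, an activator of the HSP90 chaperone that opens Argonaute for loading, rose by 0.56 from 199 to 293 CPM (SE 0.0833, adjusted p = 0.00502). FXR2, a relative of the fragile X protein, rose by 0.46 (SE 0.0834, adjusted p = 0.0105), a call lost without shYY1 replicate 1 (0.45, adjusted p = 0.0888). Dicer's double-stranded RNA-binding partners TARBP2 (-0.17, adjusted p = 0.466) and PRKRA (-0.08, adjusted p = 0.633) did not pass.

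The effectors that GW182 proteins recruit were split as well. Of 17 deadenylase genes 1 rose and 4 fell, at a median of 0.01, beside 8.17% and 7.67% of all genes at a mean of 5 CPM or more. CNOT6, a catalytic subunit of the CCR4-NOT complex, fell by 0.53 from 92.4 to 63.8 CPM (SE 0.0931, adjusted p = 0.00926). CNOT7, the other kind of catalytic subunit, fell by 0.41 (SE 0.0781, adjusted p = 0.0137), and CNOT4, a ubiquitin ligase tied to the complex, fell by 0.62 (SE 0.118, adjusted p = 0.0136). PARN, a poly(A)-specific ribonuclease, rose by 0.38 from 56.9 to 74.1 CPM (SE 0.0858, adjusted p = 0.0256). The CNOT7 call was lost without shYY1 replicate 1 (-0.42, adjusted p = 0.119) or replicate 2 (-0.39, adjusted p = 0.164), and that of CNOT4 without shYY1 replicate 1 (-0.58, adjusted p = 0.0789). PARN was called in 8 of 13 alternatives. It was lost without shYY1 replicate 1 (0.39, adjusted p = 0.172) or replicate 2 (0.38, adjusted p = 0.171), under library totals alone (0.33, adjusted p = 0.0555) and with limma-trend on FPKM at pseudocounts of 1 (0.28, adjusted p = 0.0871) and 0.1 (0.33, adjusted p = 0.0852). PAIP2, an inhibitor of poly(A)-binding protein, rose by 0.45 from 96.7 to 132 CPM (SE 0.0753, adjusted p = 0.00778), a call lost without shYY1 replicate 1 (0.47, adjusted p = 0.0532) or replicate 2 (0.44, adjusted p = 0.0766) at folds close to that of all libraries.

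Of 17 genes of decapping, decay and translational repression 4 rose and 1 fell, at a median of 0.08. The shares over all genes at a mean of 5 CPM or more were 8.17% and 7.67%. DDX6, the helicase that represses CCR4-NOT targets, fell by 0.45 from 87.5 to 64.1 CPM (SE 0.0989, adjusted p = 0.024), which was lost without shNC replicate 1 (-0.38, adjusted p = 0.0543) or shYY1 replicate 1 (-0.35, adjusted p = 0.239). PNRC1, a decapping cofactor, rose by 0.72 from 7.45 to 12.2 CPM (SE 0.149, adjusted p = 0.0189). EIF4E2, a cap-binding repressor of translation, rose by 0.45 (SE 0.0957, adjusted p = 0.0207), and EDC3, an enhancer of decapping, rose by 0.41 (SE 0.0892, adjusted p = 0.0231). Each of these 3 calls was lost when either shYY1 library was left out, at adjusted p values of 0.0597 to 0.192. The log2 fold changes were then 0.72 and 0.71 for PNRC1, 0.45 and 0.46 for EIF4E2, and 0.46 and 0.37 for EDC3, without replicate 1 and replicate 2 in turn.

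**Figure D4:**
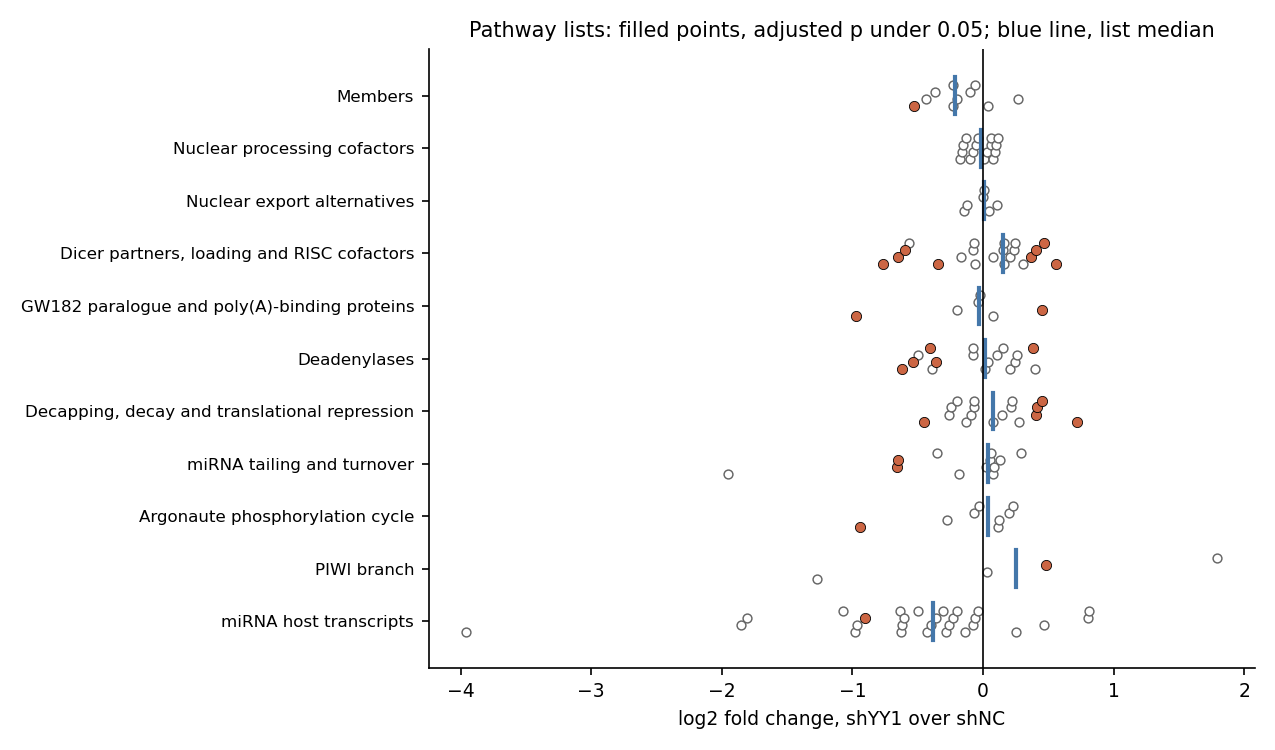
Log2 fold change of shYY1 over shNC (horizontal axis) for every tested gene of the 10 machinery genes (top row), 9 lists of the wider pathway and the host transcripts of microRNAs, filled where the adjusted p was under 0.05, with a blue line at each list's median. The nuclear cofactors and export genes lie between -0.17 and 0.11. Calls lie on both sides of 0 among Dicer partners, GW182 and poly(A)-binding genes, deadenylases and decapping genes. Tailing and phosphorylation genes hold calls below 0 alone, and the PIWI branch above 0 alone.

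The plot of the pathway lists sets the machinery's median of -0.21 beside list medians from -0.03 to 0.26 in the wider pathway. The highest of these came from the 4 tested genes of the PIWI branch. The host transcripts, in the same plot, had a lower median than the machinery, at -0.38. Lists share no genes, but they share the same 4 libraries.

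Among 12 genes of microRNA tailing and turnover 0 rose and 2 fell, at a median of 0.04, beside 5.05% and 4.9% of all tested genes. ERI1, an exonuclease that trims small RNAs, fell by 0.66 from 93.0 to 59.0 CPM (SE 0.080, adjusted p = 0.00202). TUT4, a uridylyl transferase of precursor hairpins, fell by 0.65 from 45.3 to 28.9 CPM (SE 0.137, adjusted p = 0.0204), a call lost with limma-trend on FPKM (-0.45 and -0.65 at pseudocounts of 1 and 0.1, adjusted p = 0.0753 and 0.0739). Of 8 genes of the Argonaute phosphorylation cycle EGFR alone passed. EGFR, the receptor tyrosine kinase known to phosphorylate AGO2, fell by 0.94 from 3438 ± 309 to 1791 ± 63.3 CPM (SD, n = 2 each; SE 0.105, edgeR adjusted p = 0.0015). Of the PIWI branch, the germline relatives of this pathway, 6 of 12 genes had a row, 4 were tested and 1 rose. PLD6, a mitochondrial nuclease of piRNA biogenesis, rose by 0.48 from 19.4 to 27.1 CPM (SE 0.111, adjusted p = 0.0296), which was lost without shNC replicate 1 (0.40, adjusted p = 0.0751), shYY1 replicate 1 (0.48, adjusted p = 0.111) or shYY1 replicate 2 (0.48, adjusted p = 0.0993). PIWIL2 (10, 6, 36 and 19 counts in the order shNC replicates 1 and 2 and shYY1 replicates 1 and 2) and PIWIL4 (34, 28, 13 and 12 counts), named after their values were seen, were near the lower end of what was tested.

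The RNAs that the machinery acts on were looked for in rows of microRNAs and of their host transcripts. Of 572 rows named after single microRNAs, 474 had a count, 18 were tested and 0 were called, and the same rows gave 0 genes at an unadjusted edgeR p under 0.05 and 0 by DESeq2. Over all tested genes edgeR called 4.9% lower and 5.05% higher. At that unadjusted threshold 12.5% were lower and 12.5% higher. The rows of single microRNAs held 0.0018% to 0.0022% of all counts. Of 46 rows of microRNA host transcripts (symbols from MIR to HG) 28 were tested, and 24 had a log2 fold change below 0, with a median of -0.38, where 51.2% of all tested genes were below 0. Of these 28, 13 had a mean under 100 counts per library, so their fold changes are uncertain. In 14 of them both shYY1 libraries were below both shNC libraries, beside 28.1% of all tested genes, and in 2 both were above, beside 26.8%. Of the 28, edgeR called 1 lower and 0 higher, which does not set host transcripts apart from the 4.9% and 5.05% of all tested genes. At an unadjusted edgeR p under 0.05, 5 were lower and 0 higher. Limma-trend on log2 CPM and edgeR with a block for the replicate number each called 2 lower, and DESeq2 called 1 lower. MIR1915HG (chromosome 10, 21492658 to 21497260, minus strand) had 1123 and 1158 counts in shNC and 608 and 578 in shYY1. It fell by 0.91 on the log2 scale (SE 0.134), or 1.87-fold, with an edgeR adjusted p of 0.00471, and it was called in all 13 alternatives.

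The mature microRNAs named by MIR1915HG are shown since theirs was the host transcript called in the edgeR test of all 4 libraries. They lie at chr10:21496576-21496595 and chr10:21496609-21496630 on the minus strand (RefSeq, GRCh38.p14), with the seed, bases 2 to 8, in capitals.
hsa-miR-1915-3p: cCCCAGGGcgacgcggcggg
hsa-miR-1915-5p: aCCUUGCCuugcugcccgggcc
Their seeds differ from each other and from those inside DGCR8 and DICER1. Whether the mature forms changed was not measured.

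**Figure D5:**
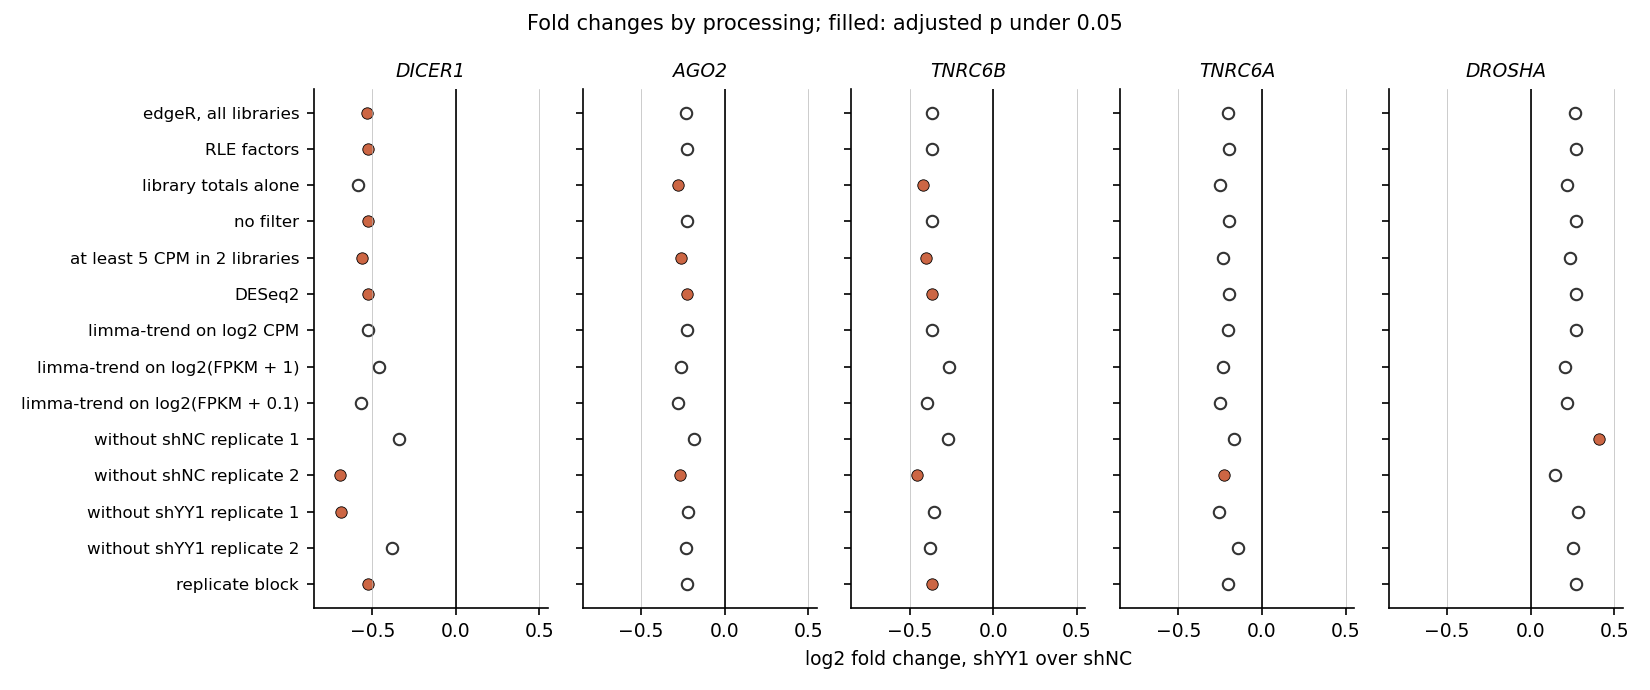
Log2 fold change of shYY1 over shNC (horizontal axis of each panel) for DICER1, AGO2, TNRC6B, TNRC6A and DROSHA under the reported test and each of 13 alternatives (rows), filled where the adjusted p was under 0.05. No value of these 5 genes crosses 0, while DICER1 is filled in 7 of the 13 alternatives and DROSHA in 1.

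The plot of fold changes by processing sets the 5 machinery genes called under at least 1 processing side by side. The direction of each was the same in all 13 alternatives, and their calls were not. AGO1, AGO3, AGO4, DGCR8 and XPO5 were called in none of the 13.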

How the data were processed

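RNA from KYSE30 cells was sequenced in 2 shNC and 2 shYY1 libraries, grouped by sample title. Whole-number counts per gene were deposited by the authors and used unchanged, and so were FPKM values per gene (scaled to gene length and library total), which served for levels between genes and as an alternative. Bowtie 0.12.2 and the mouse builds mm8 and mm9 are listed per the submitters' processing notes, which cannot describe this table of human Ensembl IDs. For its aligner, counter, strand setting and build, the answer is not given in the sources used here. Coordinates are the table's, and 4 of the 10 genes have the same start and end in GENCODE 29 (GRCh38). Of the columns of per-sample values, 0 belonged to other samples.

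Genes passing edgeR's filterByExpr (minimum count 10, minimum total 15) were tested with edgeR 4.0.16 (R 4.3.3), quasi-likelihood with robust estimation, TMM factors (0.980 to 1.04), no block and Benjamini-Hochberg adjustment over 18035 genes at 0.05. CPM are TMM-scaled. The common biological coefficient of variation was 20.2%, with 2 residual degrees of freedom. On simulated counts for shYY1 against shNC over 18035 genes, 200 were changed. The script recovered 23.5% of 1.5-fold and 53.0% of 2-fold changes (40.9% and 86.7% at 5 CPM or more). There were 9 false calls beside 47 true and 17 beside 106. In both runs the false share was above the 0.05 that the threshold is meant to hold. Replicates differed by more than sampling noise (chi-square per gene 45.1 in shNC and 19.8 in shYY1). The floor of 3 counts covers counting error only, because without molecular identifiers reads cannot be counted as separate molecules. The SE of a log2 fold change is its absolute value divided by the square root of the F statistic of the edgeR test. It therefore includes the spread between libraries.

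Tried as alternatives were DESeq2 1.42.0, RLE factors, scaling by library totals alone, no filter, a filter of at least 5 CPM in 2 libraries, limma-trend (limma 3.58.1) on log2 CPM with a prior count of 2, limma-trend on log2 FPKM with a pseudocount of 1 or 0.1 where 2 libraries reached 1 FPKM, leaving out each library, and a block for the replicate number. The members, the lists and the 3′ UTR words were chosen with earlier results of these data known. Named are YY1, the 10 genes, TNRC6C, up to 4 called genes per list by adjusted p with up to 2 called in the opposite direction, and called host transcripts. Squamous markers, DDX5, DDX17, SRRT, RAN, XPO1, POLR1C, TMC6, TARBP2, PRKRA, PIWIL2, PIWIL4, LIN28B and MIR222HG were named after their values were seen or for their place or role. The tables were processed with python 3.11.15 and pandas 2.3.3.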

Additional observations from a re-analysis of the deposited data

How the results depend on the processing

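Of the 10 machinery genes 0 were called higher and 1 lower. The lower count was 2 under library totals alone, 3 under the 5 CPM filter, 3 under DESeq2, and 0 under limma-trend on log2 CPM, log2(FPKM + 1) and log2(FPKM + 0.1). With single libraries left out it ran from 0 to 4, and the higher count from 0 to 1. The cause was not tested, apart from the loss of a sample when a library is left out; a lone library in a group is then assumed to vary like the other group. Over all genes 910 were higher and 883 lower. DESeq2 gave 1470 higher, and single libraries left out gave 425 to 2097 higher and 595 to 1207 lower. The log2 fold change changed sign for AGO1 without shNC replicate 1 (range -0.213 to 0.0303 over single libraries left out) and for XPO5 without that library (range -0.0155 to 0.094), under library totals alone (-0.0136), log2(FPKM + 1) (-0.0159) and log2(FPKM + 0.1) (-0.0167). With the replicate number as a replicate block 2 machinery genes were lower (DICER1 at an adjusted p of 0.000904 and TNRC6B at 0.0227), and 1475 genes were higher and 1427 lower. Same-numbered libraries share only a number: their deviations correlated at 0.019 over 10588 genes at 5 CPM or more. For the named genes 355 values over 31 genes kept direction and side of the threshold, 30 over 12 genes lost the call and 11 over 4 genes gained it. TNRC6C could not be fitted in the FPKM alternatives. The lowest count of a machinery gene in a library was 463. With 2 libraries a group, 40.9% of simulated 1.5-fold changes at 5 CPM or more were recovered. The simulation changed 200 of 18035 genes, fewer than were called in the data. Recovery depends on that share, so 40.9% is not the recovery in these data. All machinery genes were at that level, and DICER1 differed 1.44-fold.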

Other observations

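LIN28B, an RNA-binding protein that blocks processing of let-7 precursors and was singled out after its values were seen, had 2003 counts in shNC replicate 1, 240 in shNC replicate 2, and 309 and 264 in the shYY1 libraries. These were 28.6, 3.33, 4.40 and 3.87 CPM. The log2 fold change of -1.95 ± 1.42 (SE) had an edgeR adjusted p of 0.555, and 1 library held the difference. LIN28B was 1 of 3 tested genes at 5 CPM or more in shNC replicate 1 and at least 4-fold above each other library, the others being STX16-NPEPL1 and AL355312. The corresponding numbers were 1 gene in shNC replicate 2, 4 in shYY1 replicate 1 and 6 in shYY1 replicate 2.

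MIR222HG, the host transcript of miR-221 and miR-222, had 147 and 125 counts in shNC and 17 and 0 in shYY1. Its log2 fold change of -3.96 ± 1.09 (SE) did not pass (edgeR adjusted p = 0.0827). The groups did not overlap, at 2.10 and 1.73 CPM in shNC and 0.242 CPM and 0 counts in shYY1.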
